A study of Mus musculus with 12 samples.

Results

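This section describes 10 genes of the inflammasome and of pyroptosis, listed by name in a rule that uses no measured value: Nlrp3, Aim2, Nlrc4, Pycard, Casp1, Casp4, Casp8, Gsdmd, Il18 and Txnip. All 10 were among the 13232 genes measured. They were compared between macrophages grown from the bone marrow of mice on a high-fat diet (HFD, 3 libraries) and mice on a normal diet (ND, 3 libraries). The labels give every mouse as C57B6/J and wild type, and give no age. All 6 cultures were differentiated in medium with 10% serum and 20 ng/ml of M-CSF, the growth factor that turns marrow progenitors into macrophages. From day 4 the medium held no serum, and on day 7 all cultures spent 1 h at 1% oxygen, so the ND cells are controls for diet and not for hypoxia. The labels describe 12 libraries in 4 groups; the 6 kept at normal oxygen were not analysed here, and nothing can be said of the response to hypoxia. The diet was given to the mice and not to the cells, and the labels do not say whether libraries of a diet came from separate mice or cultures. The p-values therefore measure only the spread between these libraries, which may be technical.

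An inflammasome is a protein complex that a macrophage assembles in its cytosol when it meets a microbial product or a sign of damage. A sensor such as NLRP3, AIM2 or NLRC4 recruits the adaptor ASC, the product of Pycard, which brings in caspase-1. Caspase-1 then cuts the precursors of the cytokines IL-1β and IL-18, and it frees the pore-forming end of gasdermin D, through which the cell releases cytokines and can die by pyroptosis. Most of these steps act on proteins that are already made, so a transcript level says how much message was present, not whether a complex had formed.

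None of the 10 genes differed between the diets after adjustment over all genes. The estimated level in HFD macrophages was 0.870 times that in ND macrophages for the sensor Nlrp3 and 0.906 times for the adaptor Pycard. For Txnip, a thioredoxin-binding protein that has been linked to NLRP3, it was 1.12 times. These 3 had the smallest p-values of the 10. The caspases, the pore former Gsdmd, the other sensors and Il18 had intervals that included no difference. Adjusted p-values of the 10 ran from 0.392 to 0.997.

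The background for these counts came from the same fit. At an adjusted p under 0.05, limma called 0 of 13232 genes, which is 0% (smallest adjusted p 0.0656). An unadjusted p under 0.05 was reached by 1401 genes, or 10.6% of all, of which 715 (5.4%) were higher and 686 (5.18%) lower in HFD libraries. The list held 3 such genes, 1 higher and 2 lower. All 3 HFD libraries lay above all 3 ND libraries for 985 genes (7.44%) and below them for 936 (7.07%). On the list this was so for 1 gene in each direction, Txnip above and Pycard below. With 10 genes, these shares are too coarse to set the list apart from the table as a whole. The list's median log2 fold change was -0.029 against -0.0034 over all genes. Its median absolute log2 fold change was 0.117 against 0.092.

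An estimated 19046400 to 24491500 reads per library were assigned to the 13232 genes. Of the 10 macrophage markers examined, all 10 were in the table, 4 with a higher and 6 with a lower mean in HFD libraries. Their summed level spanned 373226 to 425419 in ND and 370203 to 431316 in HFD libraries, most of it from Lyz2, with means of 244444 and 242339. Adgre1 lay above and Cd14 below in every HFD library against every ND library. Markers of other cells were also present: 6 of 10 for neutrophils, 3 of 7 for stroma, and 1 each for T and NK cells (Cd4, of 9) and for B cells (Ighm, of 7). No dendritic cell marker (0 of 8) was in the table. All 6 neutrophil markers had higher means in HFD libraries (summed level 1712 to 2455 in ND, 2110 to 3430 in HFD). Mmp8 alone did not overlap, at 443, 463 and 452 in ND libraries and 707, 1032 and 834 in HFD libraries (adjusted p 0.113), and the other 5 did. The 3 collagen genes had lower means (177.5 to 548.6 in ND, 51.8 to 336.8 in HFD). Cd4 spanned 201.9 to 355.9 in ND and 98.1 to 230.0 in HFD libraries, and Ighm spanned 1889 to 3061 and 1876 to 2075. No marker passed the adjusted test, and the part of other cells in the values below was not tested. In such bulk RNA, fewer cells of a type and less RNA per cell cannot be told apart.

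To order the 10 genes by level, values were divided by length, here per kilobase of the longest coding transcript (mean ± SD over 6 libraries). Txnip stood first at 3458 ± 267 normalized reads per kilobase, and Casp1 followed at 1168 ± 96.7. Gsdmd at 634 ± 38.9 and Casp8 at 613 ± 22.0 had overlapping ranges, so their order is not resolved. Nlrp3 came next at 400 ± 38.4, the most abundant of the 3 sensors per length. Pycard at 278 ± 15.4 and Casp4 at 273 ± 33.0 also overlapped. Aim2 stood at 164 ± 15.8, and the lowest pair, Nlrc4 at 110 ± 6.42 and Il18 at 104 ± 16.3, could not be ordered either. The range from first to last was 33.2-fold. The places of Pycard and Casp4 depend on the length used. Pycard's transcript of 3800 bases is longer than its whole RefSeq gene span of 2495 bases, which would give 423.5 per kilobase. That span includes introns, so a spliced RefSeq transcript would give a higher level from the same reads. With all annotated exons merged, Casp4 would stand at 105.

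**Figure D1:**
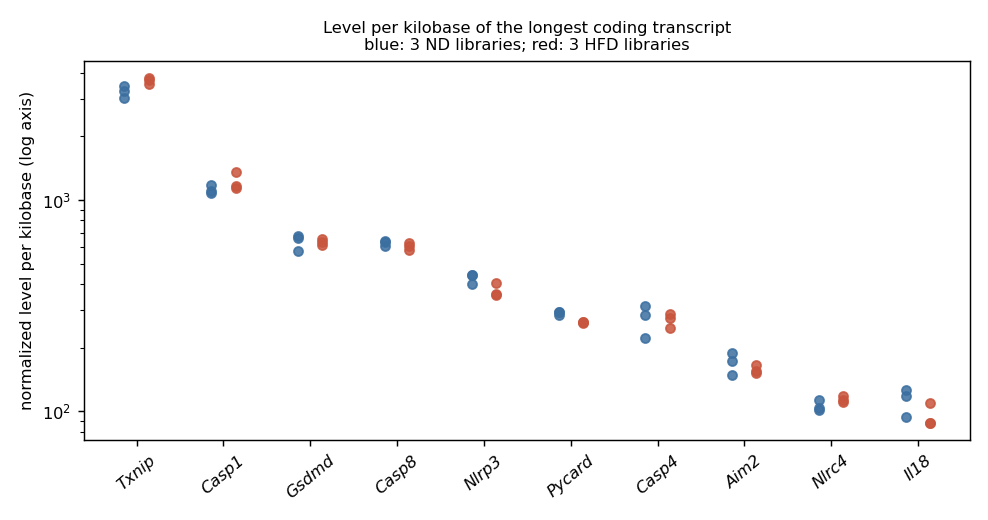
Normalized reads per kilobase of the longest coding transcript (log axis) for each of the 10 genes; each point is 1 library, ND and HFD marked apart. Txnip is highest at a mean of 3458 and Nlrc4 and Il18 are lowest at 110 and 104, with the diets close together within each gene.

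Txnip encodes a protein that binds and inhibits thioredoxin, restrains glucose uptake and is a well-known target of the glucose-responsive transcription factors MondoA and ChREBP. The gene lies on chr3:96557957-96561883 (GRCm38, plus strand). Those factors bind the carbohydrate response element, a pair of CACGNG boxes with 5 bases between them. The last 100 bases before the start (RefSeq, GRCm38.p6, chr3:96557857-96557956, plus strand) are shown because they hold such a pair, with every CACGNG match on either strand in capitals:
Txnip: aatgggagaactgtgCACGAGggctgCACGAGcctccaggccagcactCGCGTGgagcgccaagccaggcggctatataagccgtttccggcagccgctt
The pair runs from base 85 to base 69 before the start. Of 32851 windows of the same length, 250 bases before a gene's start, 15 (0.046%) hold a pair on either strand, and 23.5% hold at least 1 such box. No other gene of the 10 with a window had the pair. The related genes Arrdc3 and Arrdc4, searched in the same way, did not have it either. Arrdc4 had 1 box, from base 193 to base 188. The search was chosen after the values were seen, and a match of letters is not a measured binding site.

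Normalized Txnip reads were 9821, 9256 and 8592 in ND libraries 1 to 3 and 10392, 10642 and 9957 in HFD libraries 1 to 3. The groups did not overlap, though the gap between the highest ND library and the lowest HFD library was small beside the spread of the ND libraries. The means were 9223 ± 615 in ND and 10330 ± 347 in HFD (SD, n = 3 each). The log2 fold change was 0.17 ± 0.069 (SE), a fold of 1.12 with a 95% interval of 1.01 to 1.25. The unadjusted p was 0.0374 and limma's adjusted p was 0.436. After quantile normalization the log2 fold change was 0.093, and leaving out ND library 3, the lowest, gave 0.12. Exons of Txnip share 606 bases (19.4% of their length) with Gm15441 on the opposite strand. The libraries kept strand, but whether reads were counted by strand is not given in the sources used here, so reads of the 2 genes cannot be told apart.

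NLRP3, the sensor that responds to potassium loss, crystals and other signs of damage, is encoded on chr11:59541568-59566956 (plus strand). Its transcript counted 1772, 1782 and 1601 normalized reads in ND libraries and 1620, 1421 and 1444 in HFD libraries. HFD library 1 lay just above ND library 3, and the other HFD libraries were below all ND libraries. The means were 1718 ± 101 and 1495 ± 109 (SD, n = 3 each), a log2 fold change of -0.20 ± 0.075 (SE). The fold was 0.870 with a 95% interval of 0.774 to 0.977, the unadjusted p was 0.0234 and limma's adjusted p was 0.392. Nlrp3 had the smallest p-value of the list. It was called in 1 alternative: with libraries weighted by their quality, its log2 fold change was -0.26 and its adjusted p 0.0287. That alternative called 1133 of all 13232 genes, so 1 call among 10 genes is near the share over the whole table.

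Over the 6 libraries, the genes whose log2 values followed Nlrp3 most closely were Wdr44 (Pearson r 0.999), Nxpe1-ps (0.998) and Gm12905 (0.994), out of 10793 other genes with a mean of at least 100. They were chosen as the highest, so these values are descriptions, and 6 points in groups of 3 share diet and library. Nxpe1-ps counted 580, 561 and 427 normalized reads in ND libraries and 440, 315 and 321 in HFD libraries. It has the shape of Nlrp3, with ND library 3 lowest in its group and HFD library 1 highest in its own.

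AIM2, which binds double-stranded DNA in the cytosol, is encoded on chr1:173350879-173466040 (plus strand). Aim2 counted 539, 494 and 422 normalized reads in ND libraries and 440, 430 and 469 in HFD libraries. ND library 3 was the lowest of all 6 and the other ND libraries the highest, so the groups overlapped. The log2 fold change was -0.11 ± 0.10 (SE), with a 95% interval from -0.34 to 0.11 and limma's adjusted p at 0.739. It was -0.032 without ND library 1 and -0.21 without ND library 3.

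NLRC4, which assembles when NAIP proteins bind bacterial flagellin or secretion-system proteins, is encoded on chr17:74425438-74459142 (minus strand). Nlrc4 counted 478, 534 and 489 normalized reads in ND libraries and 534, 558 and 522 in HFD libraries. The groups overlapped at ND library 2. HFD over ND gave a log2 fold change of 0.11 ± 0.078 (SE), with a 95% interval from -0.068 to 0.28 and limma's adjusted p at 0.676. The sensors thus had estimates on both sides of 0, and differences between them were not tested.

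**Figure D2:**
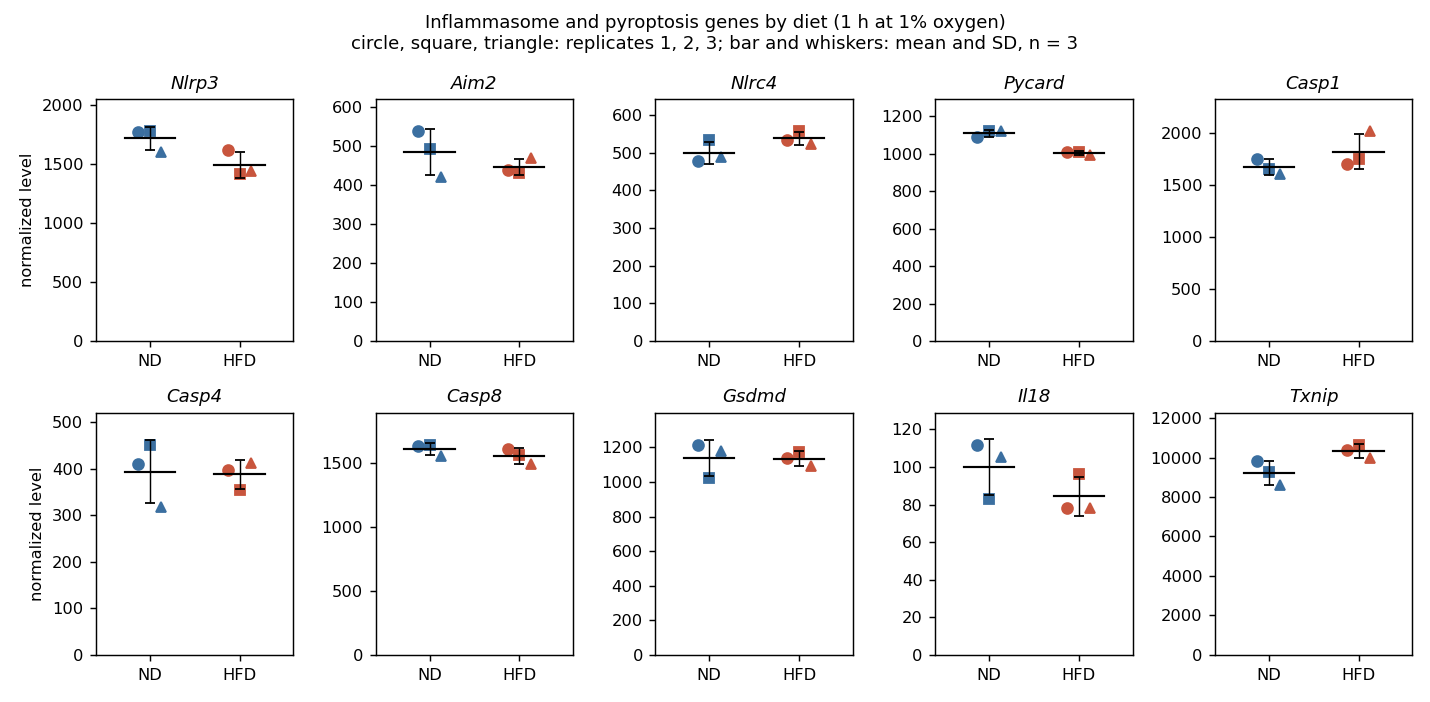
Normalized reads of each of the 10 genes in each library, 1 panel per gene; points are single libraries and bars the mean ± SD of 3 libraries per diet. HFD points lie above all ND points for Txnip and below them for Pycard, and the groups overlap for the other 8 genes.

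ASC, the adaptor that polymerizes into the speck on which caspase-1 is activated, is the product of Pycard on chr7:127989708-127993867 (minus strand). Pycard counted 1087, 1118 and 1121 normalized reads in ND libraries and 1011, 1010 and 993 in HFD libraries. The groups did not overlap, and within each diet the libraries lay very close together. The means were 1109 ± 19.0 and 1005 ± 9.88 (SD, n = 3 each). The log2 fold change was -0.14 ± 0.060 (SE), a fold of 0.906 with a 95% interval of 0.826 to 0.995, an unadjusted p of 0.0404 and limma's adjusted p of 0.444. The SD within a diet was 0.020 on the log2 scale, below the 0.044 that counting error alone would give at this level. The SE of limma, which borrows spread from genes of like abundance, is larger than these libraries alone would give. Exons of Pycard share 485 bases (12.8% of their length) with Gm45205 on the opposite strand, with the same limit as for Txnip.

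Caspase-1, the protease at the centre of the complex, is encoded on chr9:5298517-5307265 (plus strand). Casp1 counted 1756, 1654 and 1611 normalized reads in ND libraries and 1701, 1750 and 2021 in HFD libraries. ND library 1 lay above 2 of the 3 HFD libraries, and HFD library 3 stood highest. HFD over ND gave 0.12 ± 0.078 (SE) on the log2 scale, with a 95% interval from -0.054 to 0.30 and limma's adjusted p at 0.633. Without HFD library 3 it was 0.045.

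Casp1 and Nlrp3 were the genes of the list with a match to any of 4 short motifs searched on both strands of the 250 bases before the start, for 9 genes with a RefSeq window (11 windows, since Nlrp3 and Casp4 have a pair of starts each). The motifs were GAAANNGAA, a core of interferon-stimulated response elements held by 7.13% of all windows, TTCNNNGAA, the gamma-activated site (7.02%), CACGTG, the symmetric E-box (6.02%), and ACGTG, the core of the hypoxia response element (16.6%), which CACGTG contains. Casp1 had a CACGTG, which also counts as a CACGNG box, from base 137 to base 132 before its start. It is shown in capitals within 60 bases (RefSeq, GRCm38.p6, chr9:5298357-5298416, plus strand) as the only CACGTG in the windows of the list:
Casp1: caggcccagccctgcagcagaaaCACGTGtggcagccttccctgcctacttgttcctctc
The Nlrp3 match was an ACGTG on the reverse strand, from base 63 to base 59 before the upstream start. No other window of the list held any of the 4 motifs, which says only that these letters are not in these windows.

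Caspase-4, known in mice also as caspase-11, binds lipopolysaccharide in the cytosol and cuts gasdermin D without an inflammasome sensor. Its gene is the neighbour of Casp1 on chr9:5308828-5336783 (plus strand). Casp4 counted 411, 452 and 319 normalized reads in ND libraries and 397, 354 and 413 in HFD libraries. ND library 3 was the lowest and ND library 2 the highest of all 6. For Casp4 the log2 fold change was -0.0087 ± 0.13 (SE), with a 95% interval from -0.30 to 0.28 and limma's adjusted p at 0.988. The estimate ranged from -0.15 without ND library 3 to 0.098 without ND library 2.

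Caspase-8, the initiator of death-receptor apoptosis, can also cut gasdermin D and join inflammasomes; Casp8 lies on chr1:58795374-58847503 (plus strand). It counted 1635, 1646 and 1558 normalized reads in ND libraries and 1614, 1563 and 1496 in HFD libraries. The groups overlapped around ND library 3. For Casp8 the log2 fold change was -0.050 ± 0.062 (SE), with a 95% interval from -0.19 to 0.088 and limma's adjusted p at 0.821. In folds the interval runs from 0.878 to 1.06, one of the narrowest of the list. On the log2 scale the estimate was -0.021 without HFD library 3, -0.075 without ND library 3 and -0.076 without HFD library 1.

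Gasdermin D, the pore former of pyroptosis, is encoded on chr15:75862327-75867408 (plus strand). Gsdmd counted 1214, 1023 and 1177 normalized reads in ND libraries and 1137, 1175 and 1091 in HFD libraries. The lowest and the highest library were both ND. The means were 1138 ± 102 and 1134 ± 42.5 (SD, n = 3 each), and the log2 fold change was -0.0014 ± 0.079 (SE), with limma's adjusted p at 0.997. The 95% interval in folds, 0.884 to 1.13, leaves room for differences of either sign.

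IL-18, the cytokine that macrophages hold as an inactive precursor until caspase-1 cuts it, is encoded on chr9:50554827-50581840 (plus strand). Il18 had the fewest reads of the list, not divided by length, at 112, 83.1 and 105 normalized reads in ND libraries and 78.3, 96.5 and 78.1 in HFD libraries. HFD library 2 lay above ND library 2. Between the diets the log2 fold change was -0.24 ± 0.17 (SE), the largest estimate of the list, with the widest 95% interval, from -0.62 to 0.14, and limma's adjusted p at 0.661. Counting error alone gives an SD of 0.151 here, against 0.20 observed within a diet, so depth limits what can be seen of this gene. The estimate was -0.15 without ND library 1 and -0.37 without ND library 2.

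**Figure D3:**
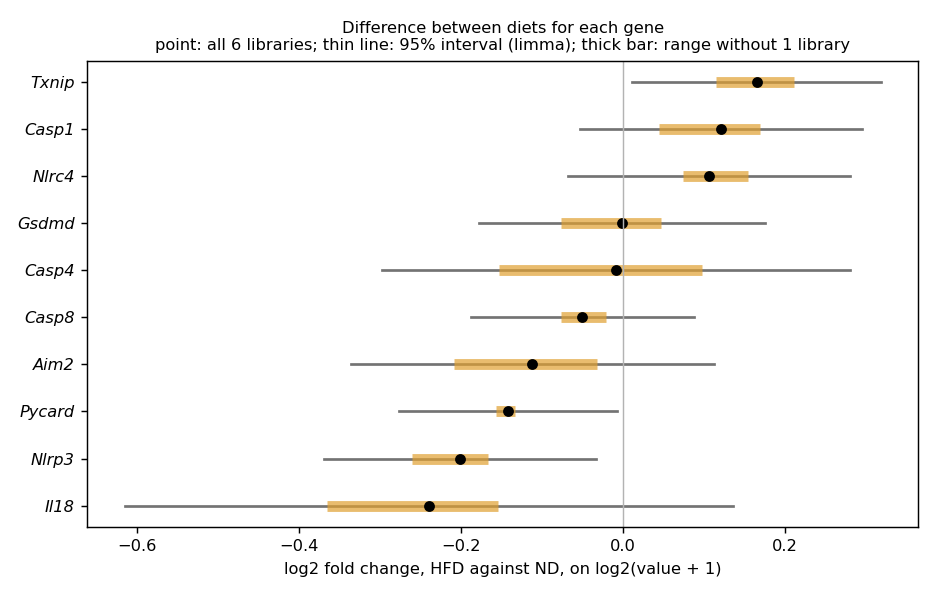
Log2 fold change, HFD over ND, of each of the 10 genes with its 95% interval from limma (thin lines). Thick bars give the range of the estimate when 1 library was left out. The intervals of Nlrp3, Pycard and Txnip lie to 1 side of 0 before adjustment, and that of Il18 is the widest, from -0.62 to 0.14.

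Among the 10 genes, single libraries varied in their own ways. Of the 60 values (10 genes in 6 libraries), 38 lay within 0.1 log2 units of their gene's mean over the 6 libraries, and 8 lay beyond 0.2. The extremes were Casp4 in ND library 3 at -0.28 and Il18 in ND library 1 at 0.29. ND library 3 held the lowest value for 4 genes and the highest for 1. HFD library 1 held neither for any gene. The median deviation of the 10 genes was 0.063, 0.049 and -0.055 in ND libraries 1 to 3 and 0.011, -0.0074 and -0.023 in HFD libraries, so the ND libraries spread further than the HFD libraries did.

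**Figure D4:**
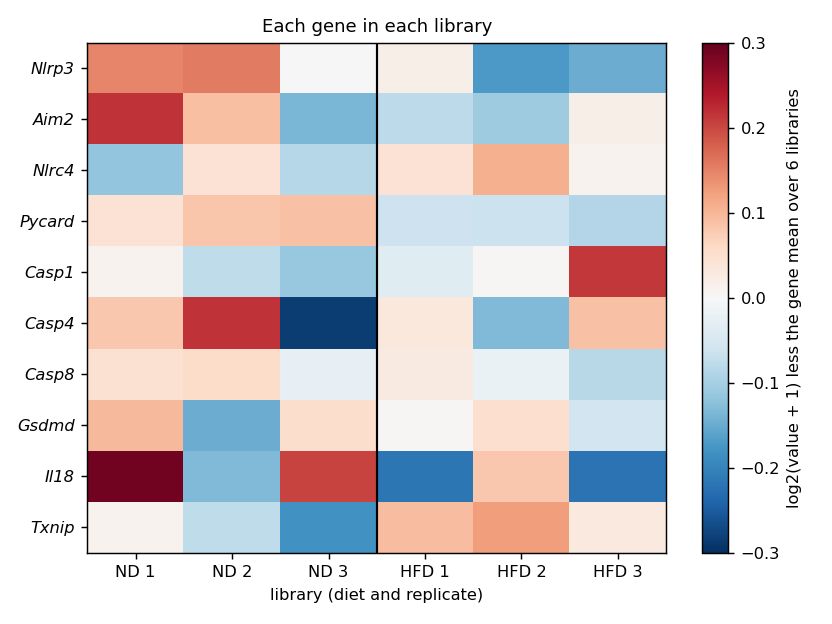
Log2 deviation of each of the 10 genes (rows) from its mean over 6 libraries, by library (columns); the colour scale is in log2 units. Pycard lies above its mean in all ND and below it in all HFD libraries, and ND library 3 holds the lowest value for 4 genes.

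The other genes of the pathway came from a list of 69, of which 58 were in the table. Of these, 25 had a higher and 33 a lower mean log2 value in HFD libraries, the median log2 fold change was -0.027, and 0 passed the adjusted test. An unadjusted p under 0.05 was reached by 16 (8 in each direction), beside 10.6% of all genes. All HFD libraries were above all ND libraries for 7 and below them for 5, beside 7.44% and 7.07% of all genes.

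Of 9 further sensors and cofactors, 4 were higher and 5 lower. Nlrp1a, a sensor of the NLRP1 family, counted 316, 303 and 331 normalized reads in ND libraries and 354, 380 and 392 in HFD libraries. The groups did not overlap, the log2 fold change was 0.25 and limma's adjusted p was 0.362. Its neighbour and paralog Nlrp1b, the sensor that anthrax lethal factor cleaves in mice of susceptible strains, had a log2 fold change of -0.27 (adjusted p 0.374), and reads may have been split between near-identical copies, so both values are uncertain. The same holds for the Naip and Gbp families.

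Of 5 genes for triggers at the membrane, 3 were higher and 2 lower. Panx1, a channel through which cells release ATP, counted 863, 853 and 1037 normalized reads in ND libraries and 1147, 1268 and 1182 in HFD libraries. Every HFD library was above every ND library. Its log2 fold change of 0.39 ± 0.088 (SE) had the smallest adjusted p of the related genes, 0.217. Over the alternatives that p ran from 0.0063 to 0.879. In the other direction stood Cd14, the co-receptor for lipopolysaccharide and also one of the macrophage markers, named after its values were seen. It counted 4006, 4019 and 3969 normalized reads in ND libraries and 3678, 2981 and 3188 in HFD libraries. All HFD libraries were below all ND libraries, with a log2 fold change of -0.29 ± 0.078 (SE) and an adjusted p of 0.281.

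Of 11 interferon-inducible GTPases and factors, 10 were lower and 1 higher, with a median log2 fold change of -0.27. The Gbp and Irgm GTPases among them act on the vacuoles of bacteria and help expose lipopolysaccharide to caspase-11, while Irf1, Irf2 and Irf8 are transcription factors and Zbp1 senses nucleic acids. An unadjusted p under 0.05 was reached by 5, all lower (5.18% of all genes were), and 0 passed after adjustment. Gbp3 counted 345, 324 and 253 normalized reads in ND libraries and 268, 194 and 158 in HFD libraries, a log2 fold change of -0.59 with an adjusted p of 0.320. Gbp2 counted 1037, 859 and 677 and then 779, 607 and 517, a log2 fold change of -0.43 with an adjusted p of 0.416. Without ND library 1 it was -0.29, and without ND library 3 it was -0.59. In both genes HFD library 1 lay above ND library 3, so the groups overlapped.

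Of 6 gasdermin, rupture and repair genes, 5 were higher and 1 lower. Ninj1, which tears the plasma membrane at the end of pyroptosis, counted 5475, 6396 and 5790 normalized reads in ND libraries and 6797, 7650 and 6449 in HFD libraries. The groups were just apart, the log2 fold change was 0.24 and limma's adjusted p was 0.357. Gsdme, the gasdermin that caspase-3 cuts, had a log2 fold change of 0.11 (adjusted p 0.722), which was 0.025 without HFD library 3, 0.060 without ND library 2 and 0.18 without HFD library 1.

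Of 9 cytokine, receptor and inhibitor genes, 4 were in the table, 3 higher and 1 lower. Il1rn, which encodes the antagonist of the IL-1 receptor, counted 447, 369 and 414 normalized reads in ND libraries and 459, 574 and 623 in HFD libraries. HFD libraries 2 and 3 stood well above the ND range and HFD library 1 just above it. The log2 fold change was 0.42 ± 0.12 (SE) with an adjusted p of 0.297. Il18bp, whose product binds and neutralizes IL-18, counted 305, 394 and 289 and then 419, 423 and 411, a log2 fold change of 0.35 with an adjusted p of 0.343. Il1b was near the bottom of the table, at 9.98, 26.4 and 4.72 in ND libraries and 14.7, 7.72 and 11.8 in HFD libraries. At that level no difference in Il1b between the diets was detectable (adjusted p 0.999).

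To follow Il18 against its inhibitor from library to library, its normalized reads were divided by those of Il18bp; the genes differ in length, so the size of this ratio does not rank their levels. It was 36.7%, 21.1% and 36.3% in ND libraries and 18.7%, 22.8% and 19.0% in HFD libraries. HFD library 2 lay above ND library 2, so the groups overlapped. The mean log2 ratio was 0.60 lower in HFD libraries (a difference of -0.60), and between -0.86 and -0.46 when a library was left out. This ratio was chosen after its parts were seen and was not tested.

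Of 15 caspase and death-receptor genes, 4 were higher and 11 lower, none with an unadjusted p under 0.05. The smallest p belonged to Mlkl, the pore former of necroptosis, with 380, 396 and 373 normalized reads in ND libraries and 437, 419 and 413 in HFD libraries. The groups did not overlap, the log2 fold change was 0.14 and limma's adjusted p was 0.570.

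Of 8 thioredoxin and glucose-sensing partners of Txnip, 5 were higher and 3 lower. Txnrd1, the reductase that recharges thioredoxin, counted 6508, 7059 and 9707 normalized reads in ND libraries and 9585, 11093 and 10852 in HFD libraries. ND library 3 reached the HFD range. The log2 fold change was 0.46 with an adjusted p of 0.297. Txn1, thioredoxin itself, counted 1999, 2050 and 2751 and then 2662, 2961 and 2803, a log2 fold change of 0.32 with an adjusted p of 0.362, again with ND library 3 inside the HFD range. Without ND library 3, Txn1 and Txnrd1 passed the adjusted test together with Panx1 and Gbp5, as did 233 of all genes. Arrdc4, an arrestin-domain relative of Txnip that also answers to MondoA, counted 242, 242 and 289 and then 324, 337 and 281, a log2 fold change of 0.28 with an adjusted p of 0.416. Arrdc2, another arrestin-domain relative, named after its values were seen, had a lower mean in HFD libraries. It counted 319, 303 and 289 normalized reads in ND libraries and 257, 258 and 220 in HFD libraries, without overlap, a log2 fold change of -0.31 with an adjusted p of 0.324. Txnip itself had its lowest value in ND library 3, where Arrdc2 and Arrdc3 also had their lowest ND value. In that library Txn1, Txnrd1, Arrdc4, Txn2 and Mlx each had the highest ND value, and Mlxip had neither.

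**Figure D5:**
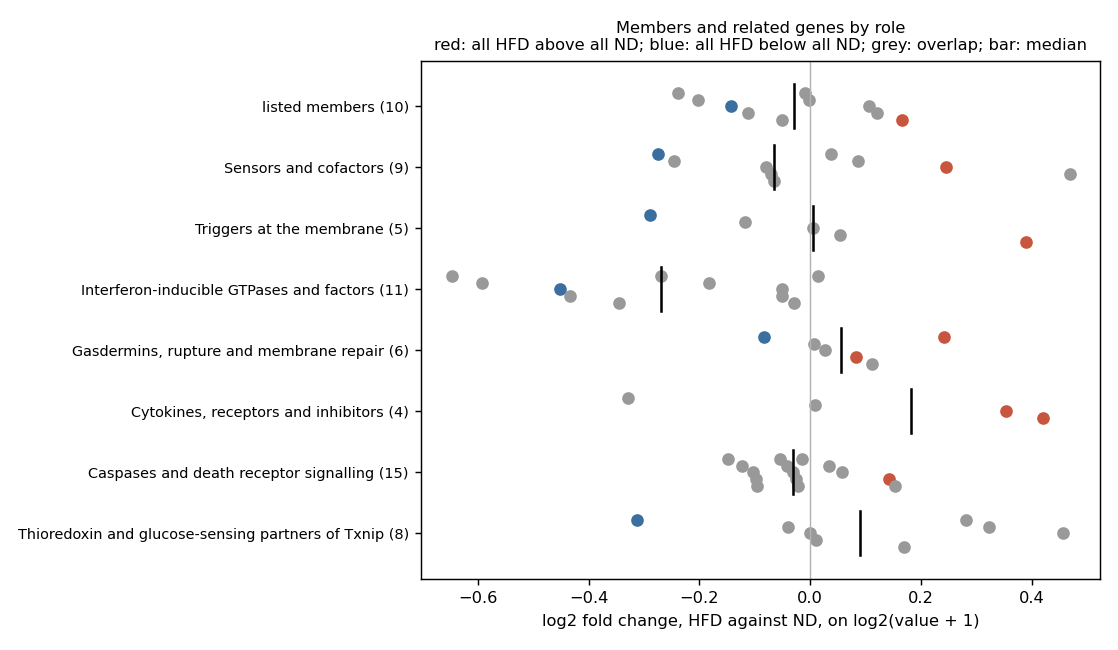
Log2 fold change, HFD over ND, of the 58 related genes grouped by role (points are genes). The interferon-inducible group lies mostly below 0, with 10 of 11 genes lower and a median of -0.27, and no gene passed the adjusted test.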

How the data were processed

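The deposited values are a signal, estimated reads per gene divided by a size factor per library, as read from the values; the authors' counting, annotation, filters and normalization are not given in the sources used here. STAR, Partek and mm10 are named without a role in the submitters' processing notes. Per the labels' protocols, stranded total RNA libraries (100 ng input, ribosomal RNA removed) were read as single 75-base reads. In each library 57.0% to 58.4% of mid-range values were whole multiples of 1 read (within 0.02), which is too few to recover whole reads for a count test. The NC columns were read as ND, the other diet the labels name, and 0 value columns were unmatched.

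Each gene's log2(value + 1), a scale that understates changes of low genes, was compared with limma 3.58.1 in R 4.3.3 (two-sided, mean-variance trend, HFD against ND, 3 libraries each). Benjamini-Hochberg adjustment covered all 13232 genes, with a threshold of 0.05, and the code was tested on simulated data. A two-sided exact permutation test of 3 against 3 cannot go below p = 0.1. Positions and lengths are from GENCODE M21 (GRCm38). All 10 genes were named, together with the related genes of smallest p in each role and a few set by name. The members, lists and rules were chosen with earlier results of these data known. Alternatives covered the pseudocount, a minimum mean of 100, other scalings, limma's options, a replicate block and leaving out each library. Same-numbered libraries were checked for shared deviations (correlations 0.089, -0.11 and 0.027) and not treated as pairs. Counting error covers reads only, which without molecular identifiers are not independent molecules.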

Additional observations from a re-analysis of the deposited data

How the results depend on the processing

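The count of genes passing, 0, was 1133 with array weights (libraries weighted by quality, 0.441 for ND library 3 to 3.09 for HFD library 2), 31 with the replicate block and 0 to 233 when a library was left out (233 without ND library 3, 2 without HFD library 1, 1 without ND library 2). Of the 10 genes, array weights called 1, Nlrp3 (-0.26, adjusted p 0.0287), and no other alternative called any; Nlrp3's adjusted p otherwise reached 0.934. Of the related genes, array weights called 19, and leaving out a library 0 to 4 (4 without ND library 3); the replicate block called 0 of either. The labels do not say whether the replicate numbers pair the samples, which the main fit did not treat as pairs. With so few libraries, the check for shared deviations cannot settle it. The median of the 10 genes, -0.029, was -0.092 with array weights and -0.10 (without ND library 3) to -0.0013 (without ND library 1) when a library was left out. Signs turned for Gsdmd (0.0052 with array weights, -0.076 to 0.047 leaving out a library), Casp4 (-0.15 to 0.098 leaving out a library) and Il1b (-0.056 at a pseudocount of 10, -0.27 after quantile normalization, -0.0032 scaled to the column total, -0.35 with array weights, -0.52 to 0.60 leaving out a library). The cause was not tested. Of 149 values of the 10 genes under alternatives, 141 kept direction and side of the threshold, 1 passed and 7 turned; of 194 of the related genes named by the rule, 173, 13 and 8 did so. Nlrp1b, Cd14 and Arrdc2, named outside it, are not in that tally. Without the mean-variance trend none of the 10 had an unadjusted p under 0.05. Il18 has no value at a minimum mean of 100. Of the 10 genes, Il18 had the fewest reads.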
